A study of Mus musculus with 24 samples.

Results

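The cysteine tRNA genes of mouse embryonic stem cells were followed through 3 kinds of library: RNA crosslinked to TET2, RNA recovered with an antibody against 5-hydroxymethylcytosine (hm5C), and short fragments cut from tRNAs in cells with and without Tet2. The members were all tRNA genes whose name ends in Cys and an anticodon. There were 57 of them among 435 tRNA genes and 53900 features in the gene tables, all with the anticodon GCA and so of 1 isoacceptor. In the fragment table each gene had 3 entries, 1 per fragment kind, which made 171 of 1305 entries, and 129 of these 171 held at least 1 count. The names put 49 genes on chromosome 6, 5 on chromosome 11, 2 on chromosome 9 and 1 on chromosome 17.

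A cysteine tRNA brings cysteine to the ribosome and reads both cysteine codons through its GCA anticodon. Cysteinyl-tRNA synthetase, encoded by Cars, charges it, and in human cells the methyltransferase NSUN6 adds a methyl group to a cytosine near its acceptor end. TET2 oxidises 5-methylcytosine, in DNA and in RNA, to hm5C. Cut tRNAs give short fragments, and 5′ pieces of cysteine and alanine tRNAs are known from human cells to inhibit the start of translation. By their usual names, tRF5 fragments come from the 5′ end of a mature tRNA, and tRF3a and tRF3b fragments from its 3′ end, with tRF3a the shorter. The sources used here do not give the exact definition behind the deposited kinds.

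All cultures grew with leukemia inhibitory factor and blockers of GSK3 (CHIR99021, 3 µM) and of MEK (PD0325901, 1 µM). For crosslinking and immunoprecipitation (CLIP), E14 cells with His- and HA-tagged Tet2 (clones 65 and 75) were given 4-thiouridine at 500 µM for 4 hours and UVB light at 400 mJ/cm2. Per clone there were 2 libraries of TET2 CLIP and 2 of input, so both arms carry the tag and the crosslinking. For RNA immunoprecipitation (RIP), untreated B6;129 cells gave 2 hm5C RIP and 2 input libraries. For small RNA, RNA of 14 to 38 nt came from 3 Tet2 KO and 3 WT cultures in experiment 1 and from 3 Tet2 KO and 3 E14 cultures in experiment 2, all labelled B6; 129. The experiments used independent knockout sets. Experiment 1 was made with a TruSeq kit and experiment 2 with NEBNext, so kit, control line and knockout set cannot be told apart between them. The fragment table holds no mRNA, so the loss of Tet2 was not checked in it.

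Total counts were 221060 to 453944 in TET2 CLIP against 913002 to 4729463 in the CLIP inputs, and 1564014 to 2100187 in hm5C RIP against 4641963 to 4889943 in the RIP inputs. The fragment tables held 96070 to 173450 counts per library, which is not the depth of those libraries since they list tRNA fragments alone. All 8 stem cell markers were counted in the inputs, with a summed level of 1498 to 2443 counts scaled to a library total of 1e6 (CPM) in the CLIP inputs and 34.5 to 39.7 CPM in the RIP inputs. Markers of trophoblast summed to 175 to 419 CPM in the CLIP inputs, nearly all of it Gata3, while endoderm and fibroblast markers each stayed at or under 12.7 CPM. The part of other cell types in the results was not tested. WT replicate 1 of experiment 1 stood apart, with 85.3% of its fragments of the tRF5 kind and a TMM scaling factor of 0.594, against 1.00 to 1.22 in the other 5 libraries.

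Which cysteine genes could be seen depended on the library. In CLIP 5 of the 57 genes had a count, in RIP 11 and in the fragment table all 57, and the 5 of CLIP were among the 11 of RIP. The other 46 genes were counted only as fragments. RefSeq's table for GRCm38.p6 lists 56 cysteine GCA tRNA genes, 48 of them between 47978997 and 48363603 on chromosome 6, 5 between 97769829 and 97988994 on chromosome 11, 2 between 104400120 and 104404127 on chromosome 9 and 1 at 71599271 to 71599342 on chromosome 17. Of these, 55 are 72 bp long. The names in the count tables could not be matched to these entries one by one, so genes are given by the names in the tables. Gene copies with like sequences can share reads, but the sequences were not compared here. The sources used here do not say how shared reads were counted. The value of a single gene is therefore less certain than the sum over genes.

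The CLIP libraries asked whether cysteine tRNAs are recovered with TET2 above their level in input. They were scarcely seen there. The TET2 CLIP libraries of clone 65 held 0 and 1 cysteine tRNA counts, against 24 and 33 counts in its inputs. The TET2 CLIP libraries of clone 75 held 0 and 1 counts, against 1 and 5 in its inputs. The 4 TET2 CLIP libraries thus held 2 cysteine counts among 8454 tRNA counts, and the 4 inputs 63 among 25568.

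Both counts in TET2 CLIP came from chr6.tRNA1029-CysGCA, with 1 in replicate 2 of each clone, while that gene had 0 and 5 counts in the inputs of clone 65 and none in those of clone 75. In the inputs most counts fell on chromosome 11. There chr11.tRNA1433-CysGCA had no count in TET2 CLIP, against 16 and 13 counts in the inputs of clone 65 and 0 and 2 in those of clone 75. Its neighbour in number, chr11.tRNA1432-CysGCA, had none in TET2 CLIP, against 4 and 11 and then 0 and 1 counts. The gene chr6.tRNA1014-CysGCA had none in TET2 CLIP, against 4 and 3 counts in the inputs of clone 65 and 1 and 2 in those of clone 75. A single count of chr11.tRNA1442-CysGCA lay in an input of clone 65.

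Set against all tRNA counts, cysteine made up 0.0224% in TET2 CLIP of clone 65 (1 of 4469 counts pooled over 2 libraries) and 0.285% in its inputs (57 of 20009). The ratio of these shares was 0.0785, with an exact 95% interval of 0.00195 to 0.456. In clone 75 the share was 0.0251% in TET2 CLIP (1 of 3985) and 0.108% in the inputs (6 of 5559), a ratio of 0.232 whose interval of 0.00505 to 1.92 includes equal shares. At the input share, 12.7 cysteine counts would have lain among the tRNA counts of TET2 CLIP in clone 65 and 4.30 in clone 75. These exact intervals cover counting error only and leave out the spread between libraries.

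The tRNA share itself differed between the arms, at 0.515% to 1.11% of all counts in TET2 CLIP against 0.158% to 0.264% in the inputs, so the ratio depends on what it is set against. Per total count, the ratio for cysteine was 0.304 (0.00755 to 1.76) in clone 65 and 0.750 (0.0163 to 6.18) in clone 75. A fall of the cysteine counts as such was therefore not detectable at this depth. The plot of the cysteine share by library shows how wide the counting intervals of TET2 CLIP are.

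**Figure D1:**
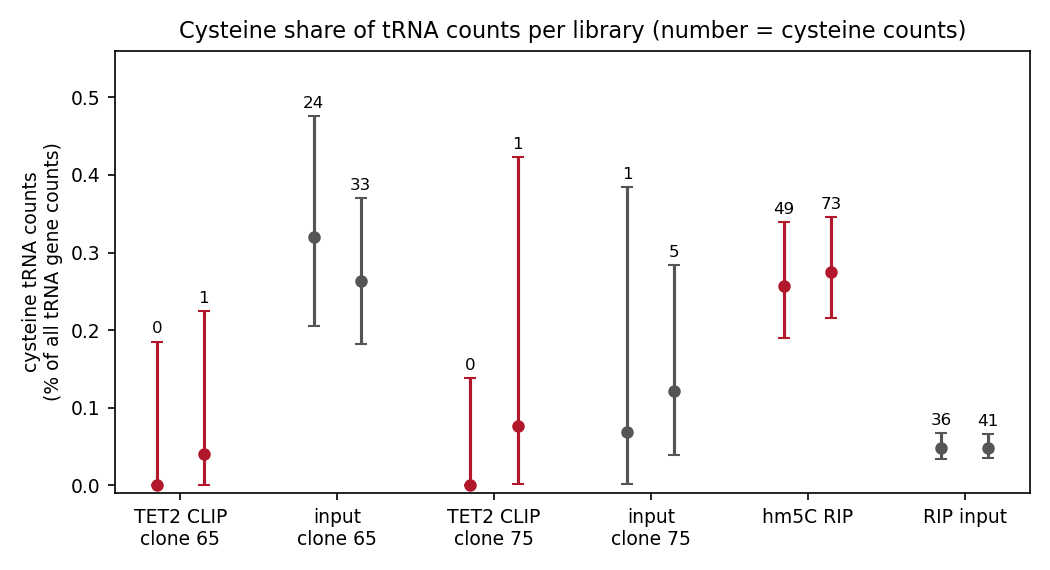
Cysteine tRNA counts as a percentage of all tRNA gene counts in each CLIP and RIP library, with exact 95% binomial intervals for counting error; the number above a bar is the cysteine count, and red points are TET2 CLIP or hm5C RIP and grey points the inputs. TET2 CLIP libraries hold 0 or 1 count, while both hm5C RIP libraries lie above both RIP inputs.

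No cysteine gene and no cysteine sum passed the filter on low counts in CLIP, so edgeR's quasi-likelihood test had none to call, beside 15.6% of the 9726 features tested that it called in either direction over both clones. With the filter taken off, the cysteine sum had a log2 change of -1.74 (SE 1.39) in clone 65, with an adjusted p of 0.761 in edgeR, and of -0.75 (SE 1.67; adjusted p 0.970) in clone 75. Over both clones it was -1.25 (SE 1.10; edgeR adjusted p 0.804), and the clones differed by 0.99 (SE 2.58; edgeR adjusted p 1.00). The other 19 amino acids with a tested sum all had positive log2 changes in both clones, with a median of 3.05 over both and a range of 1.41 to 4.32. That range was tested after a count filter that cysteine did not pass, and the difference between cysteine and these sums was not tested.

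The hm5C RIP libraries asked whether cysteine tRNAs are recovered with the hm5C antibody above input, and their sum rose. The cysteine sum was 49 and 73 counts in hm5C RIP against 36 and 41 counts in the inputs, from deeper libraries. Scaled by library total, that is 31.3 and 34.8 CPM in hm5C RIP, against 7.76 and 8.38 CPM in the inputs. Both hm5C RIP libraries lay above both inputs, though the share of all features without overlap was not computed. The sum had a log2 change of 1.83 (SE 0.32), with an adjusted p of 0.00238 in edgeR's quasi-likelihood test.

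Among 21 amino acid sums, cysteine had the second highest log2 change in hm5C RIP, next to tyrosine at 1.87 (SE 0.41), a gap smaller than either SE. The median of the 21 sums was -0.26 and their range -2.24 to 1.87, with 5 sums called higher and 5 lower. Of the features tested in this fit, 51.9% were called in either direction and 32.4% as higher, so a call is common in this comparison. As a share of tRNA counts, cysteine made up 0.257% and 0.275% in hm5C RIP against 0.0485% and 0.0484% in the inputs, with a pooled ratio of 5.51 (exact 95% interval 4.11 to 7.43, counting error only).

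The single gene that carried most of these counts was chr11.tRNA1432-CysGCA, with 35 and 51 counts in hm5C RIP against 26 and 27 in the inputs. It averaged 21.8 ± 1.25 CPM in hm5C RIP and 5.96 ± 0.389 CPM in the inputs (SD, n = 2 each, scaled by total and TMM factor). It was the only member of 57 to pass the count filter, and it rose by 1.86 on the log2 scale (SE 0.36; edgeR adjusted p 0.00353), in a fit that called 51.3% of 2037 features in either direction and 31.7% as higher.

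The remaining genes did not move alike. The gene chr6.tRNA1014-CysGCA had 13 and 5 counts in hm5C RIP and none in either input, at least 15.6-fold higher per total count when the inputs are set at a floor of 3 counts over the group. This gene did not pass the count filter and entered the fit without it through its hm5C RIP counts alone. There its edgeR adjusted p was 0.00133, which is not an independent test of the rise. The share of all features called in that fit was not computed. By contrast chr6.tRNA1029-CysGCA had 1 and 6 counts in hm5C RIP against 8 and 9 in the inputs, which is 1.56 ± 1.28 and 1.91 ± 0.0166 CPM (SD, n = 2 each), with overlapping libraries. Also on chromosome 6, chr6.tRNA1017-CysGCA, had 0 and 7 counts in hm5C RIP and none in the inputs. The 7 other genes counted in RIP had 1 to 3 counts in all.

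The rise rested on few libraries. Leaving out 1 input left it at 1.49 (edgeR adjusted p 0.0847) without replicate 1 and at 1.44 (edgeR adjusted p 0.101) without replicate 2, and without the count filter it was 1.20 (edgeR adjusted p 0.0578). The call of chr11.tRNA1432-CysGCA was lost in the same 3 settings, with an edgeR adjusted p of 0.0998 without the filter. One mRNA gene, Acsl6, held 55.2% and 60.6% of all hm5C RIP counts, and without it the sum rose by 1.67 (edgeR adjusted p 9.45e-04). Without it and by library size alone the sum stood at 3.28, while the median of all features was 1.95, so that the sum lay 1.33 above that median, against 1.76 above it in the fit with Acsl6 and TMM.

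Genes linked to the making, modification, charging or cutting of tRNAs, and the Tet genes, were read as mRNAs from the same tables, from a list of 31. In RIP 4 of the 31 could be tested and 1 rose, beside 31.7% of all features called as higher. It was Trmt1, a tRNA guanine methyltransferase, with 18 and 63 counts in hm5C RIP against 16 and 15 in the inputs (log2 change 2.45, SE 0.50; edgeR adjusted p 0.00431). The median of the 4 was 0.93 against 0.08 over all features tested. The mitochondrial cysteine tRNA mt-Tc, which is encoded apart from the nuclear genes, had 6 and 4 counts in hm5C RIP against 15 and 13 in the inputs, with a fitted log2 change of -0.28 (SE 0.61; edgeR adjusted p 0.746).

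In CLIP 25 of the 31 were tested over both clones, of which 3 rose and 1 fell, beside 9.36% of all features called as higher and 6.25% as lower, with a median of -0.01 against -0.02 over all features. Those that rose were Dicer1, the nuclease that makes microRNAs (0.66, edgeR adjusted p 0.00111), Tet3, a relative of Tet2 (0.90, edgeR adjusted p 0.00366), and Elac2, which trims the 3′ end of tRNA precursors (0.89, edgeR adjusted p 0.0273). Pop1, a protein of RNase P, fell by 0.84 on the log2 scale (edgeR adjusted p 0.0295). It had 4 and 5 counts in TET2 CLIP of clone 65 against 200 and 351 in its deeper inputs. Scaled by library total, that is 18.1 and 22.4 CPM against 67.6 and 74.2 CPM. In clone 75 Pop1 had 61.7 and 43.1 CPM in TET2 CLIP against 62.4 and 59.7 CPM in the inputs. Taken by clone, Dicer1 (0.92), Tet3 (1.37) and Pop1 (-1.40) were called in clone 65 (edgeR adjusted p 0.00239, 0.00285 and 0.0390) and missed the threshold in clone 75, where the log2 changes were 0.39, 0.43 and -0.29 (edgeR adjusted p 0.232, 0.444 and 0.607). For these 3 genes the difference between the clones did not pass the test (edgeR adjusted p 0.272 to 0.374), and Elac2 was called in neither clone alone. Cars had 20 and 25 counts in TET2 CLIP of clone 65 against 493 and 789 in its inputs, and 69 and 40 in TET2 CLIP of clone 75 against 106 and 261, with a fitted log2 change of -0.02 (SE 0.15; edgeR adjusted p 0.958) over both. Ssb, whose protein La binds the ends of new tRNA transcripts, rose by 1.53 in clone 65 (edgeR adjusted p 0.00937), where 11.6% of features were called. Its change in clone 75 minus that in clone 65 was -2.44 (edgeR adjusted p 0.0276), a contrast that called 2.73% of features. These values rest on few counts. Ssb had 11 and 11 in TET2 CLIP of clone 65 against 62 and 114 in its inputs. In clone 75 it had 6 and 3 against 19 and 50.

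Cysteine fragments in small RNA were plentiful enough to be followed in each library. The Tet2 KO libraries of experiment 1 held 423, 362 and 264 cysteine fragments, against 300, 295 and 408 in WT. Those of experiment 2 held 772, 765 and 726 in Tet2 KO, against 828, 606 and 480 in E14. In both experiments the groups overlapped. Cysteine made up 0.275% to 0.312% of all fragments in Tet2 KO against 0.181% to 0.390% in WT, and 0.445% to 0.586% in Tet2 KO against 0.407% to 0.678% in E14.

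The 3 kinds were spread over the genes in different ways. The tRF3a fragments, 3898 counts over all 12 libraries, lay almost wholly in 7 of 57 genes, which held 94.4% of them. These were chr11.tRNA791, chr11.tRNA1433, chr6.tRNA1029, chr6.tRNA157, chr11.tRNA1442, chr11.tRNA1432 and chr11.tRNA1444, with 492 to 564 counts each. The eighth gene, chr6.tRNA1026, had 51. In experiment 2, where counts were higher, the 7 lay close together within a library, for example at 66 to 88 in Tet2 KO replicate 1 and 90 to 113 in E14 replicate 1. In experiment 1 they were fewer and spread wider, for example at 11 to 23 in Tet2 KO replicate 1 and 7 to 19 in WT replicate 1. Whether reads that fit all 7 genes were shared among them was not tested.

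The eighth gene differed between the experiments. Its tRF3a fragments numbered 12, 7 and 8 in Tet2 KO and 8, 6 and 10 in E14 of experiment 2, while all 6 libraries of experiment 1 had 0. Knockout and control did not separate in either.

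The tRF5 fragments, 2170 counts, were spread wider, over 53 of 57 genes, and the top 7 held 50.7%. Chromosome 6 genes held 53.1% of tRF5 but 32.4% of tRF3a, and chromosome 11 genes 30.4% of tRF5 but 67.4% of tRF3a. The most counted tRF5 over all 12 libraries was that of chr17.tRNA457, which led in experiment 1 with 184 counts but not in experiment 2, where chr11.tRNA1432 led with 64. The tRF5 of chr17.tRNA457 had 56, 38 and 16 counts in Tet2 KO against 19, 18 and 37 in WT, and 9, 12 and 11 in Tet2 KO against 2, 10 and 9 in E14. The same gene had 1 tRF3a count in all. Next, by counts summed over both experiments, was the tRF5 of chr11.tRNA791, with 23, 29 and 12 counts in Tet2 KO against 24, 23 and 51 in WT, and 13, 10 and 15 in Tet2 KO against 7, 8 and 6 in E14. This entry did not pass the count filter in experiment 2. Fitted over both experiments, its log2 change was -0.10 (SE 0.29; edgeR adjusted p 0.851). The longer 3′ kind, tRF3b, had 161 counts in 27 genes, and its 7 leading genes were the 7 that led tRF3a.

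**Figure D2:**
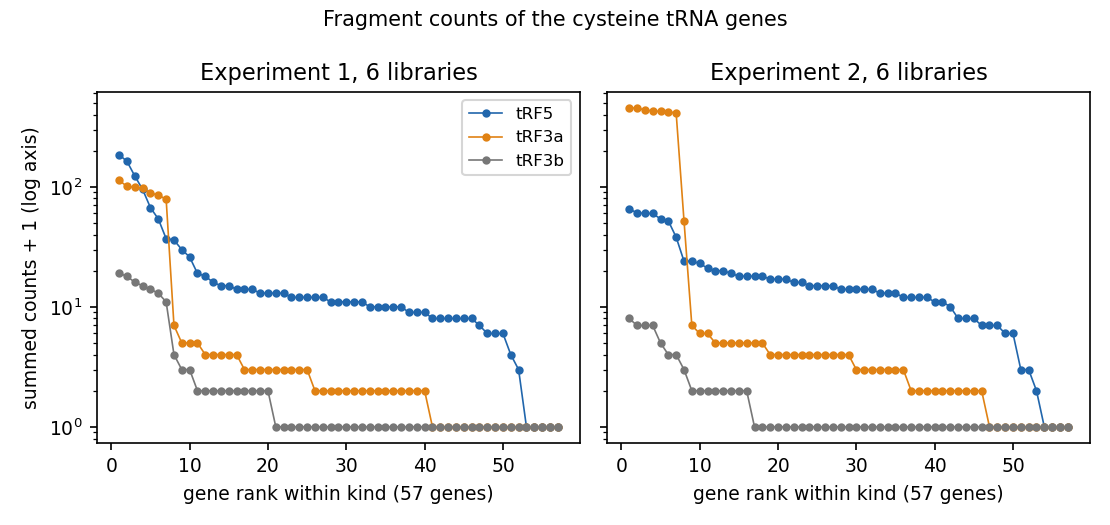
Counts of each cysteine tRNA gene summed over the 6 libraries of an experiment, plus 1, on a log axis, with the 57 genes ranked from high to low within each fragment kind. The tRF3a counts drop after the seventh gene, from 78 to 6 in experiment 1 and from 408 to 51 in experiment 2, while tRF5 counts decline slowly over 52 and 53 genes.

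The small RNA libraries asked how tRNA fragments differ when Tet2 is lost, and in both experiments tRF5 made up more of the cysteine fragments in every Tet2 KO library than in any control library. In experiment 1, tRF5 made up 63.4%, 63.3% and 59.8% of cysteine fragments in Tet2 KO, against 57.3%, 55.6% and 54.4% in WT. In experiment 2 it made up 28.4%, 23.5% and 30.6% in Tet2 KO, against 11.2%, 21.8% and 23.1% in E14. The groups did not overlap in either experiment, but the nearest libraries each lay inside the other's exact interval for counting error. In experiment 1 these were 59.8% (53.7% to 65.8%) in Tet2 KO replicate 3 and 57.3% (51.5% to 63.0%) in WT replicate 1. In experiment 2 they were 23.5% (20.6% to 26.7%) in Tet2 KO replicate 2 and 23.1% (19.4% to 27.2%) in E14 replicate 3. The order of the nearest libraries is therefore not settled by these counts. The means were 62.2% ± 2.00 in Tet2 KO and 55.8% ± 1.47 in WT, and 27.5% ± 3.61 in Tet2 KO and 18.7% ± 6.51 in E14 (SD, n = 3 each).

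The same share was taken for each amino acid. Of 19 amino acids with at least 100 fragments in every library, 1 (5.26%) had a higher tRF5 share in Tet2 KO with no overlap in experiment 1, and 1 (5.26%) in experiment 2. In both cases that 1 was cysteine itself, but these shares and the minimum of 100 fragments were chosen after their values were seen. A lower share with no overlap was found for 11 (57.9%) in experiment 1 and 5 (26.3%) in experiment 2. Over all tRNAs, tRF5 was 49.4% to 53.7% of fragments in Tet2 KO against 70.1% to 85.3% in WT, and 76.0% to 81.8% in Tet2 KO against 81.4% to 85.7% in E14. Whether cysteine differs from the other amino acids beyond the spread between libraries was not tested.

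The tRF3a share of cysteine fragments was 31.7%, 32.0% and 32.2% in Tet2 KO against 33.7%, 40.0% and 41.4% in WT, with no overlap. A lower share with no overlap was found for 10.5% of the 19 amino acids. In experiment 2 it was 70.5%, 75.3% and 69.0% in Tet2 KO against 87.3%, 77.7% and 75.0% in E14, where 1 knockout library lay above the lowest E14 library. The remaining kind, tRF3b, stayed a small part, at 4.70% to 7.95% in Tet2 KO against 4.17% to 9% in WT, and 0.413% to 1.18% in Tet2 KO against 0.495% to 1.88% in E14.

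**Figure D3:**
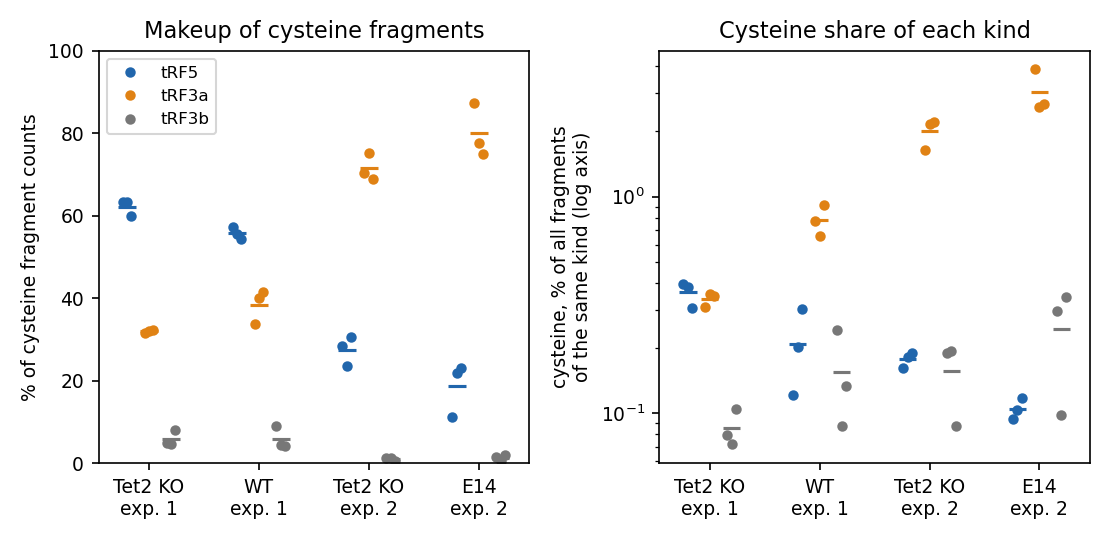
Left, the percentage of each cysteine fragment count that is tRF5, tRF3a or tRF3b in each small RNA library; right, cysteine as a percentage of all fragments of the same kind, on a log axis. Points are libraries and bars are means of 3; the tRF5 share of cysteine fragments lies at 59.8% or above in Tet2 KO and at 57.3% or below in WT of experiment 1.

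Set against all fragments of the same kind, cysteine held more of tRF5 and less of tRF3a in Tet2 KO. Its share of all tRF5 was 0.394%, 0.384% and 0.306% in Tet2 KO against 0.122%, 0.202% and 0.303% in WT, and 0.162%, 0.182% and 0.189% in Tet2 KO against 0.0936%, 0.104% and 0.118% in E14. Its share of all tRF3a was 0.310%, 0.355% and 0.349% in Tet2 KO against 0.769%, 0.656% and 0.912% in WT, and 1.64%, 2.16% and 2.204% in Tet2 KO against 3.87%, 2.58% and 2.69% in E14. None of these 4 pairs of groups overlapped, though for tRF5 in experiment 1 the nearest libraries stood at 0.306% and 0.303%. A higher tRF5 share with no overlap was found for 52.6% of the 19 amino acids in experiment 1 and 31.6% in experiment 2, and a lower tRF3a share for 57.9% and 21.1%. In both experiments at once, 5 of the 19 had the higher tRF5 share (cysteine, isoleucine, leucine, lysine and proline) and 2 the lower tRF3a share (cysteine and histidine). Shares of 1 library sum to a whole, so a higher share of 1 amino acid lowers the others.

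As levels, none of the cysteine sums passed the test. In experiment 1 the tRF3a sum was 134, 116 and 85 counts in Tet2 KO against 101, 118 and 169 in WT, which is 807 ± 25.5 and 1211 ± 314 CPM after TMM scaling (SD, n = 3 each). Its log2 change was -0.58 (SE 0.22; edgeR adjusted p 0.0609), beside 37.7% of 61 sums called in either direction. Without WT replicate 1 it was -0.67 and passed (edgeR adjusted p 0.00648), while by library size alone it was -0.18 (edgeR adjusted p 0.801). The tRF5 sum was 268, 229 and 158 counts in Tet2 KO against 172, 164 and 222 in WT, or 1570 ± 109 and 1750 ± 315 CPM, with a fitted log2 change of -0.15 (SE 0.17; edgeR adjusted p 0.453).

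The sign of this last value depended on the scaling. By library size alone the tRF5 change was 0.28 and the tRF3b change 0.22, while the median of all fragments moved up by 0.48 on the log2 scale. Relative to that median, tRF5 changed by -0.17 with TMM and by -0.22 by library size, and tRF3a by -0.60 and by -0.68. The tRF3b sum, 21, 17 and 21 counts in Tet2 KO against 27, 13 and 17 in WT, changed by -0.31 with TMM (SE 0.39; edgeR adjusted p 0.496).

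In experiment 2 the tRF5 sum was 219, 180 and 222 counts in Tet2 KO against 93, 132 and 111 in E14, or 1345 ± 209 and 926 ± 161 CPM (SD, n = 3 each). Every knockout library lay above every E14 library, but the share of all sums without overlap was not computed. Its log2 change of 0.54 (SE 0.21) missed the threshold with an edgeR adjusted p of 0.0554, in a fit that called 12.3% of 57 sums in either direction. By library size alone it was 0.66 and passed (edgeR adjusted p 0.0265), and without E14 replicate 1 it was 0.32 (edgeR adjusted p 0.312). The tRF3a sum was 544, 576 and 501 counts in Tet2 KO against 723, 471 and 360 in E14, or 3498 ± 249 and 4237 ± 1351 CPM, with a fitted log2 change of -0.28 (SE 0.22; edgeR adjusted p 0.435) that stood at -0.06 without E14 replicate 1. The tRF3b sum, 9, 9 and 3 counts in Tet2 KO against 12, 3 and 9 in E14, was too low to be tested.

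**Figure D4:**
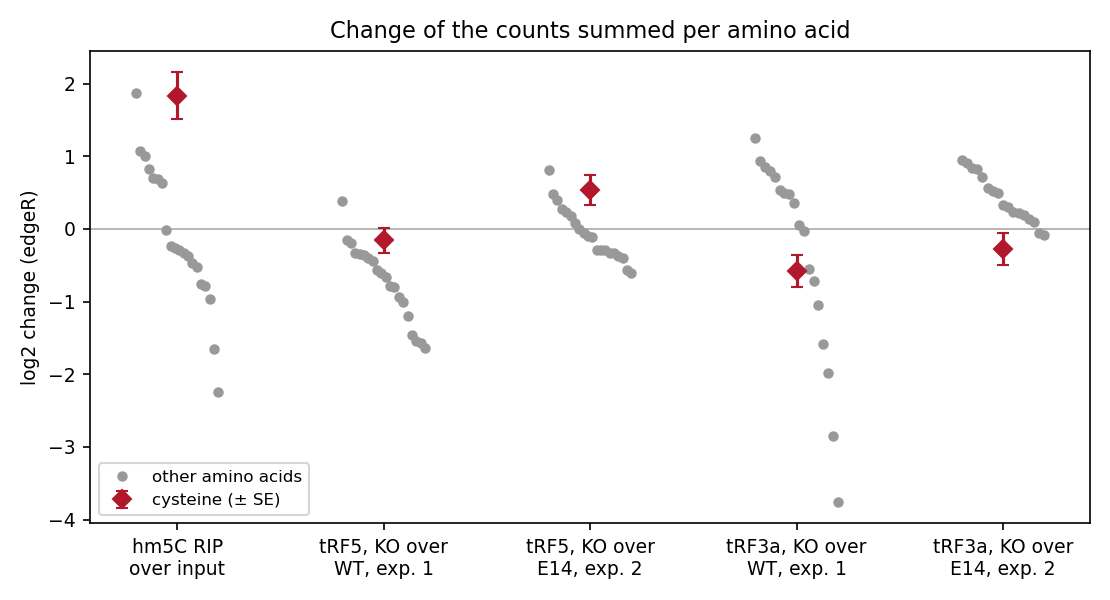
Log2 change of the counts summed per amino acid in 5 comparisons, from edgeR; grey points are the other amino acids ranked from high to low, and the red diamond is cysteine with its SE. Cysteine stands at 1.83 in hm5C RIP over input, near the top of tRF5 in both experiments and at the bottom of tRF3a in experiment 2.

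Among the sums of all amino acids, the tRF5 change of cysteine ranked 3 of 21 in experiment 1 and 2 of 21 in experiment 2, where the medians were -0.61 and -0.10. Its tRF3a change ranked 13 of 19 and 18 of 18, beside medians of 0.05 and 0.31. Fitted over both experiments, the log2 changes were 0.34 for tRF5 (SE 0.14; edgeR adjusted p 0.0664), -0.28 for tRF3a (SE 0.19; edgeR adjusted p 0.261) and -0.27 for tRF3b (SE 0.34; edgeR adjusted p 0.621), where 37.7% of 61 sums were called. Leaving out WT replicate 3 took the tRF5 change past the threshold at 0.43 (edgeR adjusted p 0.0267), and leaving out WT replicate 1 did so for tRF3a at -0.44 (edgeR adjusted p 0.0380).

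The difference between the experiments, experiment 2 minus experiment 1, was 0.15 for tRF5 (SE 0.28; edgeR adjusted p 0.698), -0.21 for tRF3a (SE 0.37; edgeR adjusted p 0.693) and -0.80 for tRF3b (SE 0.69; edgeR adjusted p 0.377), with 31.1% of 61 sums called. These values come from the fit over 12 libraries, where the TMM factor of WT replicate 1 was 1.07 against 0.594 in the separate fit. The separate fits gave -0.15 and 0.54 for tRF5 in experiments 1 and 2, and -0.58 and -0.28 for tRF3a. Set side by side, they put tRF5 further apart than 0.15 and tRF3a apart in the direction opposite to -0.21. Without WT replicate 1 the tRF5 difference was 0.73 (edgeR adjusted p 0.0489). The sign of the tRF3a difference turned under other scalings, at 0.02 both with DESeq2's size factors and by library size alone.

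Of the single cysteine fragments, 12 passed the count filter in experiment 1, and 1 was called, in a fit that called 38.8% of 595 fragments in either direction and 17.5% as lower. The tRF3a of chr11.tRNA1442 had 16, 13 and 10 counts in Tet2 KO against 19, 19 and 21 in WT, or 93.9 ± 3.95 and 185 ± 16.1 CPM (SD, n = 3 each). It fell by 0.96 on the log2 scale (SE 0.25; edgeR adjusted p 0.0183). The call was lost without any 1 of the 3 knockout libraries (edgeR adjusted p 0.0578 to 0.0810), by library size alone (-0.51, edgeR adjusted p 0.375) and without the count filter (edgeR adjusted p 0.0716).

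The 7 tested tRF3a fragments of experiment 1 all had negative log2 changes, with a median of -0.61 against 0.60 over all 184 tested tRF3a fragments. In experiment 2 the 7 tested tRF3a fragments were again all negative, with a median of -0.30 against 0.31 over 204. These are the 7 leading tRF3a genes described above, and whether they share reads was not tested. The 5 tested tRF5 fragments of experiment 1 had a median of -0.11 against -0.76 over 229, and the 3 of experiment 2 a median of 0.25 against -0.18 over 183.

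In experiment 2 edgeR called 0 of 10 tested cysteine fragments, with 1 at an unadjusted p under 0.05, beside 15.3% of 490 fragments called, and DESeq2 called 0 as well. Over both experiments it called 1 of 14, beside 25.5% of 690 in either direction and 17.7% as higher. This was the tRF5 of chr6.tRNA157, with 24, 16 and 14 counts in Tet2 KO against 16, 11 and 13 in WT, and 13, 15 and 16 in Tet2 KO against 4, 6 and 5 in E14. It rose by 0.78 on the log2 scale (SE 0.28; edgeR adjusted p 0.0385). Fitted alone, experiment 1 gave 0.05 (edgeR adjusted p 0.898) with overlapping groups. Experiment 2 alone gave 1.19 (edgeR adjusted p 0.0792), so neither experiment called it. Leaving out any 1 of the 12 libraries lost the call over both experiments (0.57 to 0.82, edgeR adjusted p 0.0513 to 0.148). The same gene's tRF3a, with 18, 18 and 10 counts in Tet2 KO against 19, 10 and 25 in WT, and 88, 62 and 73 in Tet2 KO against 92, 67 and 41 in E14, overlapped between groups in both experiments (-0.24 over both, SE 0.26; edgeR adjusted p 0.534). For the difference of experiments edgeR called 0 of 14 members, with 0 at an unadjusted p under 0.05, beside 16.1% of 690 fragments. Leaving out WT replicate 1 made it 2, but the share of all fragments called in that fit was not computed.

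The level of tRF3a differed far more between the experiments than between genotypes. Cysteine tRF3a was 85 to 134 counts in Tet2 KO and 101 to 169 in WT of experiment 1, and 501 to 576 in Tet2 KO and 360 to 723 in E14 of experiment 2. Cysteine tRF5 spanned 158 to 268 and 164 to 222, and then 180 to 222 and 93 to 132, in the same order. Kit, control line and knockout set changed together here and cannot be told apart.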

How the data were processed

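The deposited tables held raw read counts per gene or tRNA fragment, whole numbers that the authors had not normalized. The submitters' processing notes name build mm10 and the tools Bowtie2 2.2.6, STAR 2.5.3a, cutadapt and UMI-tools. The counting tool, strand and multiply mapped reads are not described in the sources used here. Columns were mapped to samples by the labels, and replicates are biological per the series' design text.

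Whole tables were tested with edgeR 4.0.16 in R 4.3.3 (TMM factors, filterByExpr with a minimum count of 10 and total of 15, robust quasi-likelihood fit) with Benjamini-Hochberg adjustment over all features tested and a threshold of 0.05. CLIP was fitted over 8 libraries, RIP over 4, and small RNA over 6 per experiment and over 12. Genes were also summed per amino acid, and fragments per amino acid and kind, keeping the library sizes and TMM factors of the unsummed table. Since the CLIP cysteine sum failed the count filter, its values come from the fit without it in every setting. Intervals of counts are exact 95% intervals (Clopper-Pearson), cover counting error only, and the floor is 3 counts.

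Cysteine genes were named where called or among the 6 most counted of a table and kind. Genes outside that rule, the shares by amino acid and their minimum of 100 fragments were chosen after their values were seen. The members, lists and tests were chosen with earlier results of these data known. Alternatives were no count filter, library size alone, DESeq2 1.42.0 and its size factors, a block for the replicate number, each library left out in turn, Acsl6 left out, share of tRNA counts, and scaling on fragments other than cysteine. No 2 replicates were 1 library deposited again: over 18 pairs, chi-square divided by its degrees of freedom was 1.66 to 29.3. The fits were also run on simulated counts with known rises and falls in equal number. That setting cannot show how a shift of many features in 1 direction affects the scaling. The mature tRNA sequences were not used here.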

Additional observations from a re-analysis of the deposited data

How the results depend on the processing

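In RIP, the cysteine sum stayed called with DESeq2's size factors, library size alone, the DESeq2 test and without Acsl6. It missed the threshold without the count filter at 1.20 (edgeR adjusted p 0.0578), and its log2 ratio of tRNA shares was 2.46, given as a value only. Without Acsl6 and by library size alone, the sum was 3.28, while the median of all 2523 features was 1.95. There 2 genes were called in place of 1, but the share of all features called in that setting was not computed. Leaving out each library gave 1.44 to 1.82 for the sum and 0 to 1 genes.

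In CLIP no cysteine gene was called in any setting. Leaving out each library gave sums of -3.67 to -0.56 over both clones, -6.61 to -0.72 in clone 65, -4.88 to 0.63 in clone 75 and -3.14 to 5.89 for the difference of clones, none of them called. Such values rest on 0 to 2 counts in TET2 CLIP.

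In experiment 1, called fragments numbered 3 with DESeq2's size factors, 2 with the DESeq2 test and 0 by library size alone and without the count filter, and 0 to 3 with libraries left out. The share of all fragments called was computed for the main fits only, so these counts have no background beside them. The median of all fragments moved by -0.11 with DESeq2's size factors and by 0.48 by library size alone. The tRF3a sum passed at -0.69 with DESeq2's size factors (adjusted p 0.0287) and with the DESeq2 test (adjusted p 0.0141), was -0.18 by library size alone (edgeR adjusted p 0.801) and -0.45 without the count filter (edgeR adjusted p 0.108), and spanned -0.67 to -0.46 with libraries left out. By library size alone tRF3b was 0.22 and tRF5 0.28. The tRF3b sum spanned -0.54 to 0.0888 with libraries left out, reversing without WT replicate 1. In experiment 2, the tRF5 sum passed at 0.66 by library size alone (edgeR adjusted p 0.0265), but was 0.42 with DESeq2's size factors and with the DESeq2 test and 0.49 without the count filter, none called, and spanned 0.32 to 0.64 with libraries left out. The tRF3a sum spanned -0.40 to -0.06 with libraries left out.

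Over both experiments, 0 fragments were called without the count filter, with the DESeq2 test and with the replicate block, and 0 to 1 with libraries left out; tRF3a spanned -0.47 to -0.14 and tRF5 0.15 to 0.43. For the difference of experiments, the tRF3a sum reversed to 0.0185 with DESeq2's size factors, 0.0168 by library size alone, 0.0189 with the DESeq2 test and 0.28 without the count filter. With libraries left out it spanned -0.51 to 0.60, tRF3b -0.95 to 0.14, tRF5 -0.0625 to 0.79, and called fragments 0 to 2. The cause of these changes was not tested.

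Replicate numbers were not used to pair the samples in the main fits, and the counts could not settle whether they pair them. With 2 libraries per arm, the correlations of same-numbered and other-numbered libraries are equal with opposite sign. Deviations of same-numbered libraries correlated at -0.00184 in clone 65, 0.0268 in clone 75 and 0.0222 in RIP, and at -0.231, 0.0563 and -0.278 in experiment 1 and 0.0973, -0.352 and 0.279 in experiment 2. With the replicate block, the RIP sum was 1.83 (edgeR adjusted p 3.58e-04), the tRF3a sum of experiment 1 -0.55 and the tRF5 sum of experiment 2 0.54, and the number of fragments called over both experiments changed from 1 to 0, the only call to change. In CLIP, depth limits every statement on cysteine.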
